A study of Mus musculus with 12 samples.

Results

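The 8 genes described here, Lin28b, Igf2bp1, Igf2bp2, Igf2bp3, Hmga2, Hmga1, Sox17 and Arid3a, mark the fetal state of blood-forming cells. They were chosen by name and found through their Ensembl identifiers, 8 of the 32285 identifiers counted in hematopoietic stem cells (HSCs) and 8 of the 56980 counted in macrophages. Each passed the filter on low counts in both cell types. RNA was sequenced in bulk from cells sorted out of mouse fetal livers at embryonic day E14.5, and the comparison asked what changes when Jag1, which encodes the Notch ligand Jagged1, is floxed out by Cre in blood cells. The 4 groups, with 3 libraries each, were HSCs labelled VavCre+Jag1 f/f, HSCs labelled VavCre-Jag1 f/f, CD169+ macrophages labelled Jag1ff/VavCre+ and CD169+ macrophages labelled Jag1ff/VavCre-. Every embryo, controls included, carried floxed Jag1, so the groups differ by the Cre transgene. This transgene is driven by Vav regulatory elements, which act in blood cells and also in part of the endothelium. The HSC gate was DAPI-CD45+Lin-cKit+Sca1+CD48-CD150+, and C57BL/6 is the strain given for those embryos.

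Lin28b is an RNA-binding protein that blocks the maturation of let-7, a microRNA family that represses growth-promoting transcripts. While Lin28b is present in fetal blood cells let-7 stays low and its targets, among them Hmga2 and the Igf2bp genes, stay high, and adult blood stem cells have lost most of this expression. The Igf2bp proteins bind messenger RNAs and change their stability and translation, the Hmga proteins bend and open chromatin, Sox17 is a transcription factor that mouse fetal and neonatal HSCs need, and Arid3a is a transcription factor of fetal-type B lymphopoiesis that acts downstream of Lin28b and let-7.

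The link between the genes can be read in their sequences. Shown first are 4 mature let-7 family members of the mouse (RefSeq, GRCm38.p6), with bases 2 to 8, the seed, in capitals. This seed is carried by 11 mouse loci in RefSeq, giving 9 distinct mature sequences.
mmu-let-7a-5p: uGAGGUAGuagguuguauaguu
mmu-let-7b-5p: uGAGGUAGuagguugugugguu
mmu-let-7g-5p: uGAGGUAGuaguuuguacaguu
mmu-miR-98-5p: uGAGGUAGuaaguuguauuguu

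The perfect match to this seed in a messenger RNA is CTACCTC. It was searched on the transcribed strand of the longest annotated 3' UTR of each gene (GENCODE M21, GRCm38), where it occurred 4 times in Lin28b, Igf2bp1 and Hmga2, 2 times in Arid3a, once in Igf2bp2, Igf2bp3 and Hmga1, and 0 times in Sox17. The match nearest the stop codon of each of the 7 genes is printed with 22 bases before it and 1 after it, with the match in capitals. An adenine after the match, which strengthens a site, stands in 6 of these 7.
Lin28b (chr10:45381022-45381051, minus strand): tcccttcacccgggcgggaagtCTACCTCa
Igf2bp1 (chr11:95961778-95961807, minus strand): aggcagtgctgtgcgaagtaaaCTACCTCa
Igf2bp2 (chr16:22059473-22059502, minus strand): gagaaaaacacacaaataaaagCTACCTCa
Igf2bp3 (chr6:49086787-49086816, minus strand): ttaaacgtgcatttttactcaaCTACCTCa
Hmga2 (chr10:120364224-120364253, minus strand): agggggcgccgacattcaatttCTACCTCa
Hmga1 (chr17:27563270-27563299, plus strand): catcttctcctctgttcacaaaCTACCTCt
Arid3a (chr10:79953888-79953917, plus strand): cacatgcaaggcaagtttctttCTACCTCa

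Of 21037 genes with an annotated 3' UTR, 9.02% hold at least 1 such match and 1.07% hold 2 or more, against 7 and 4 of these 8 genes. Density ran from 0.472 matches per kb in Igf2bp3 to 1.33 per kb in Hmga2 among the 7 genes with a match, where all annotated 3' UTRs together hold 0.07 per kb. Several of these genes are textbook let-7 targets, so these counts describe the choice of genes and are no result of the comparison. Mature let-7 itself was not measured, since the library kit primes on poly(A) tails. Of the 12 let-7 gene loci counted in macrophages, 2 had any read, 15 reads in all, and in HSCs these loci were not analysed here.

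**Figure D1:**
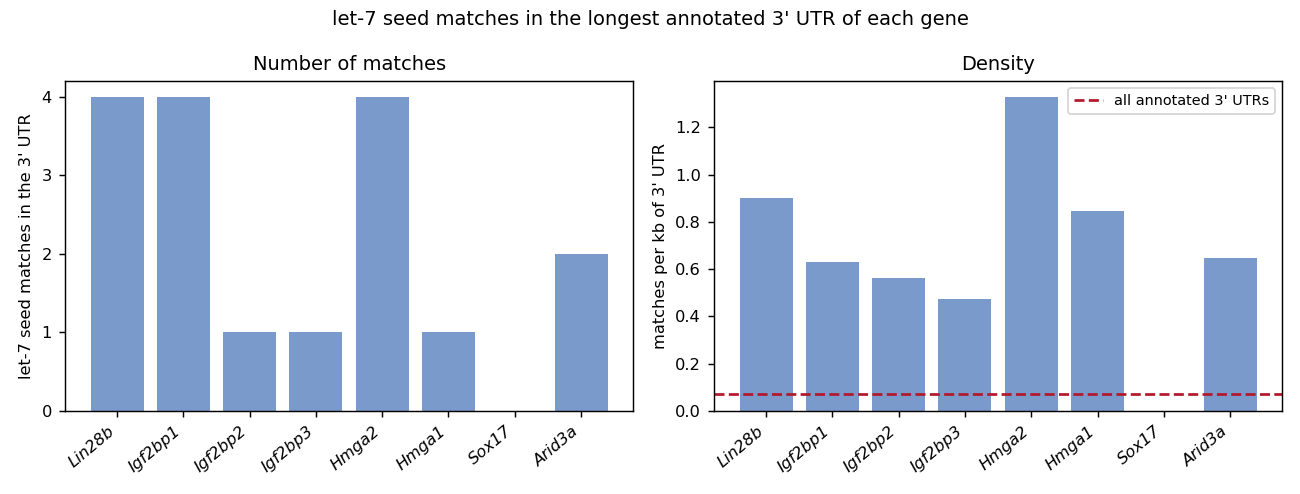
Matches to the let-7 seed in the longest annotated 3' UTR of each of the 8 genes, as a number (left) and per kb of 3' UTR (right), where the dashed line marks the 0.07 per kb of all annotated 3' UTRs. Lin28b, Igf2bp1 and Hmga2 hold 4 matches each and Sox17 holds 0.

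Depth was 51982064 to 73669941 counted reads in HSC libraries labelled Cre positive and 58235222 to 77463770 in Cre negative ones. In macrophages the Cre positive libraries held 2602934 to 5366990 reads, against 17230019 to 24658205 in Cre negative libraries, so depth moved with genotype in that sort. A count of 3 equals 0.0386 to 0.0561 CPM (read counts scaled to a common library size by TMM) in HSC libraries, 0.522 to 1.08 CPM in Cre positive and 0.138 to 0.174 CPM in Cre negative macrophage libraries, which covers counting error only. Jag1 measured 10.5, 0 and 19.5 CPM in HSC libraries labelled Cre positive and 6.53, 6.87 and 1.16 CPM in Cre negative HSCs. It thus does not separate the HSC groups, whose libraries are called by their label throughout. In macrophages it measured 0, 10.6 and 6.79 CPM in Cre positive and 52.6, 21.1 and 26.3 CPM in Cre negative libraries, with no overlap (log2 fold change -2.51, SE 1.42, edgeR unadjusted p = 0.0946, adjusted p = 1). Gene-level counts also take exons outside a floxed part. The sorts held other cells' RNA. In HSC libraries 9 endothelial markers took 0.563% to 0.734% of reads in Cre positive and 0.555% to 1.11% in Cre negative ones. In macrophage libraries they took 1.07% to 1.40% in Cre positive and 0.631% to 1.30% in Cre negative ones. That overlap rests on Cre negative macrophage replicate 1 (1.30%), the other Cre negative macrophage libraries being at 0.656% and 0.631%. Among HSC libraries 3 of these 9 markers lay lower under the Cre positive label without overlap and 0 higher. Of all genes tested in HSCs 9.33% lay lower and 6.37% higher in this way. In HSC libraries labelled Cre positive 7 of 8 stellate markers had lower means (median log2 fold change -0.94). Higher means were found for 5 of 5 neutrophil markers (median 0.77) and 4 of 5 tested megakaryocyte markers (median 0.915). Without overlap lay 1 of these megakaryocyte markers and 0 of the stellate and neutrophil ones. The part of these cells in the HSC results was not tested. Cre negative HSC replicate 1 had the lowest share of 10 HSC markers (0.08%, against 0.132% to 0.202% in the other 5) and the highest endothelial share (1.11%). Cre negative macrophage replicate 1 stands apart, with 1707 CPM of the hepatocyte gene Alb (77.1 to 231.7 CPM in the other 5). It also had 22.3 CPM of the macrophage gene Adgre1 (60.1 to 403 CPM in the other 5). Several results, but not all, are given with and without this library. In bulk RNA, fewer cells of a type and less RNA per cell cannot be told apart. Nothing in the labels ties the libraries of a group to separate embryos, and p-values measure only the spread between these libraries.

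Reads of all 8 genes were found in every HSC library, and these libraries held RNA of other cells as well. In CPM per kb of exon, the scale on which genes can be compared, the mean over the 6 HSC libraries was 45.0 for Hmga1, 38.1 for Sox17, 17.0 for Igf2bp2, 10.5 for Hmga2, 9.81 for Igf2bp3, 6.50 for Igf2bp1, 5.44 for Arid3a and 2.13 for Lin28b. Only between Sox17 (28.3 to 49.2 CPM per kb) and Igf2bp2 (12.2 to 27.6) did neighbours in this order have ranges that do not overlap. Lin28b was the scarcest of the 8 per kb, at 0.804 to 3.43 CPM per kb, and its range met that of Arid3a (2.92 to 9.80).

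Between the HSC groups the means of the 8 genes differed in both directions, and none of these differences passed. In edgeR's quasi-likelihood fit 0 of the 8 passed an adjusted p (Benjamini-Hochberg, over all genes) of 0.05, as did 0% of the 13962 genes tested (adjusted p = 0.756 to 0.996 for the 8). DESeq2 also called 0 of them. At an unadjusted p under 0.05 stood 1 of the 8, Hmga1, against 6.39% of all genes. The 4 genes with higher means in libraries labelled Cre positive were Lin28b, Hmga2, Hmga1 and Arid3a, and the 4 with lower means were the 3 Igf2bp genes and Sox17. For Arid3a, Sox17 and each Igf2bp gene the sign turned when a certain library was left out. The median log2 fold change was 0.10, beside -0.01 over all genes. In 2 of the 8, Lin28b and Hmga1, all libraries labelled Cre positive lay above all Cre negative ones, a pattern found in 6.37% of all genes, and 0 lay below without overlap, against 9.33% of all genes.

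Lin28b (ENSMUSG00000063804, chromosome 10, 45376620 to 45486395, minus strand) measured 17.8, 31.1 and 26.4 CPM in HSC libraries labelled Cre positive and 7.29, 17.3 and 15.9 CPM in Cre negative HSCs. The lowest library labelled Cre positive, replicate 1, lay just above the highest Cre negative library, replicate 2. Libraries labelled Cre positive averaged 25.1 ± 6.75 CPM and Cre negative ones 13.5 ± 5.42 CPM (SD, n = 3 each), and the log2 fold change was 0.89 (SE 0.58, edgeR unadjusted p = 0.16, adjusted p = 0.879). Its 95% interval ran from 0.739-fold to 4.67-fold, so neither no difference nor a several-fold one lies outside it. Without Cre negative replicate 1, the library with the lowest Lin28b level and the lowest share of HSC markers, the log2 fold change was 0.59. Its paralogue Lin28a, which blocks let-7 in the early embryo, had 0 reads in each of the 6 HSC libraries, below the 0.0386 to 0.0561 CPM that 3 counts stand for.

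The 3 Igf2bp genes overlapped between the HSC groups. Igf2bp1 (chromosome 11, 95957163 to 96005940), which in other fetal tissues stabilises Myc and other growth transcripts, measured 61.9, 35.2 and 81.7 CPM in libraries labelled Cre positive and 89.2, 40.7 and 68.9 CPM in Cre negative ones. The lowest and the highest value of either group lay close to those of the other. The log2 fold change was -0.15 (SE 0.42, edgeR adjusted p = 0.996), with an interval from 0.457-fold to 1.77-fold.

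Igf2bp2 (chromosome 16, 22059009 to 22163299), the member of this family that stays on in many adult tissues, measured 121, 122 and 91.0 CPM in libraries labelled Cre positive and 90.5, 125 and 204 CPM in Cre negative HSCs. Cre negative replicate 3 stood above the other 5 libraries, which lay between 90.5 and 125 CPM. The log2 fold change of -0.33 (SE 0.33, edgeR adjusted p = 0.977) became 0.05 without that library. Igf2bp3 (chromosome 6, 49085223 to 49214957), the most fetal of the 3 in mouse blood stem cells, measured 119, 29.5 and 74.7 CPM in libraries labelled Cre positive and 79.0, 69.8 and 108 CPM in Cre negative HSCs. The Cre positive label covered both the highest and the lowest of the 6 libraries, and the log2 fold change of -0.20 (SE 0.48, edgeR adjusted p = 0.996) turned to 0.18 without replicate 2 labelled Cre positive, at 29.5 CPM. The gene span of Igf2bp3 overlaps Malsu1 and Gm18010 on the other strand, and that of Igf2bp1 overlaps Gm29202, so unstranded reads there could belong to either.

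Hmga2 (chromosome 10, 120361275 to 120476469), the architectural protein that sustains self-renewal of mouse fetal HSCs, measured 68.2, 90.6 and 93.6 CPM in libraries labelled Cre positive and 45.7, 56.8 and 71.4 CPM in Cre negative ones. A single pair overlapped: replicate 1 labelled Cre positive lay below Cre negative replicate 3. Libraries labelled Cre positive averaged 84.1 ± 13.9 CPM and Cre negative ones 58.0 ± 12.9 CPM (SD, n = 3 each), and the log2 fold change was 0.54 (SE 0.30, edgeR unadjusted p = 0.108, adjusted p = 0.853) with an interval from 0.903-fold to 2.33-fold. The span of Hmga2 overlaps 1700006J14Rik and 9230105E05Rik on the other strand, that of Hmga1 AI413582 and Gm49774, and that of Sox17 Gm37587, while Lin28b, Igf2bp2 and Arid3a overlap no annotated gene.

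Hmga1 (chromosome 17, 27556497 to 27563674, plus strand), the relative of Hmga2 expressed in most dividing cells, measured 137, 121 and 96.7 CPM in libraries labelled Cre positive and 79.3, 61.7 and 78.4 CPM in Cre negative HSCs. All libraries labelled Cre positive lay above all Cre negative ones. The mean was 118 ± 20.1 CPM in libraries labelled Cre positive and 73.1 ± 9.88 CPM in Cre negative ones (SD, n = 3 each), and the log2 fold change of 0.69 (SE 0.26) had an interval from 1.07-fold to 2.43-fold. Its unadjusted p of 0.0272 in edgeR was the smallest of the 8 and took rank 501 among 13962 genes, which leaves an adjusted p of 0.756. Leaving out 1 library at a time gave log2 fold changes of 0.57 to 0.81 and unadjusted p-values of 0.0113 to 0.108.

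**Figure D2:**
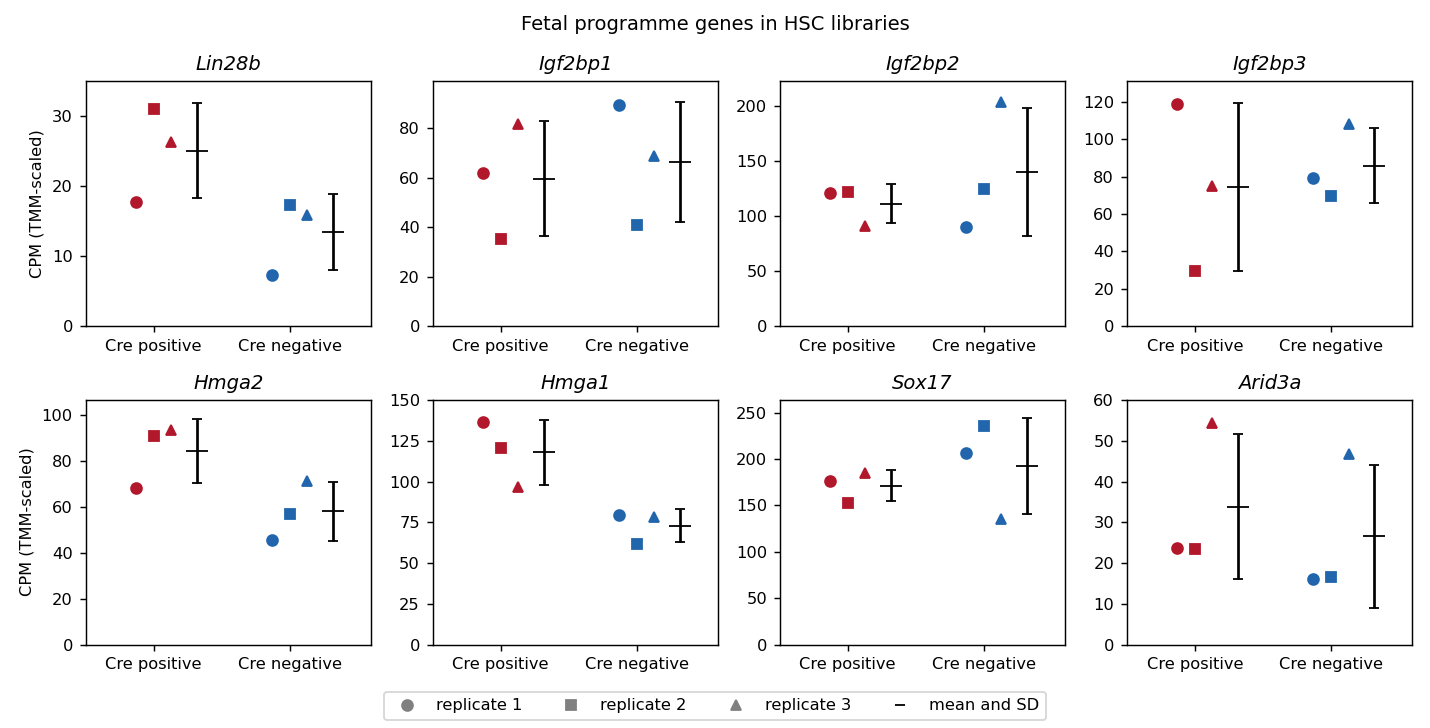
CPM of the 8 genes in the 6 HSC libraries, Cre positive (red) left of Cre negative (blue), one symbol per replicate number, with mean and SD (n = 3) as black bars. The groups do not overlap for Lin28b and Hmga1 and overlap for the other 6 genes.

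The Hmga1 difference was smaller once its copy was added. Hmga1b (chromosome 11, 120762794 to 120764419), annotated as protein coding, is nearly identical to Hmga1: 89.0% of the distinct stretches of 50 bases in its transcripts, 1403 of 1577, also occur in Hmga1 transcripts, and 55.0% of those of Hmga1 occur in Hmga1b. Hmga1b measured 38.6, 46.7 and 24.7 CPM in HSC libraries labelled Cre positive and 28.3, 60.6 and 90.7 CPM in Cre negative HSCs. Cre negative replicate 3 was the highest and replicate 3 labelled Cre positive the lowest (log2 fold change -0.71, SE 0.48, edgeR adjusted p = 0.906), the opposite side to Hmga1. Summed, the pair measured 175, 167 and 121 CPM in libraries labelled Cre positive and 108, 122 and 169 CPM in Cre negative HSCs. These sums overlapped, and their log2 fold change was 0.22 (SE 0.26, edgeR unadjusted p = 0.432, adjusted p = 0.988). How the counting treated reads that fit both genes is not given in the sources used here.

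**Figure D3:**
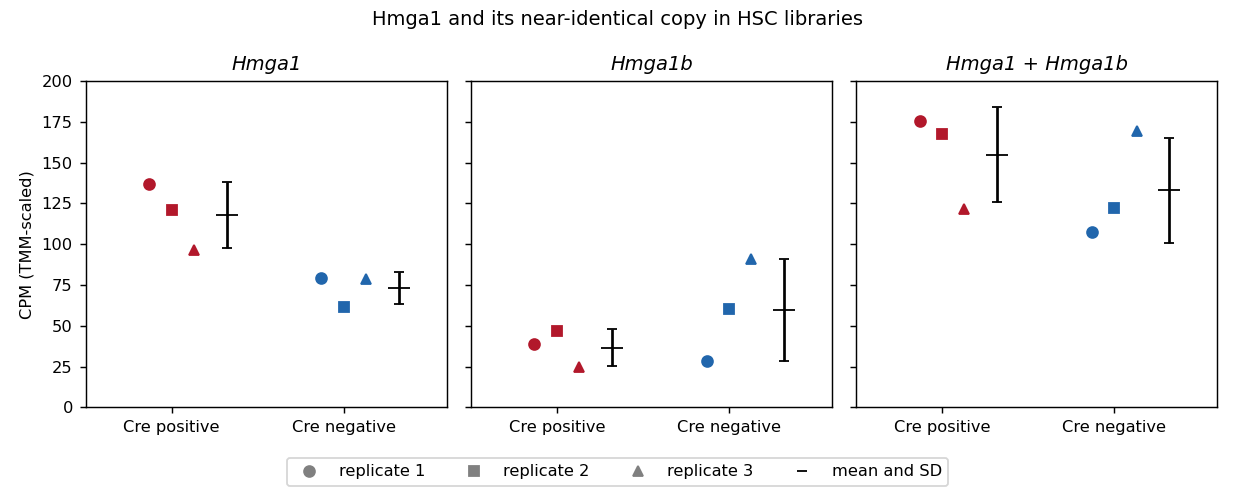
CPM of Hmga1, of its near-identical copy Hmga1b and of their sum in the 6 HSC libraries, Cre positive (red) left of Cre negative (blue), with mean and SD (n = 3). The groups are apart for Hmga1 and overlap for Hmga1b and for the sum, which runs from 121 to 175 CPM in Cre positive and from 108 to 169 CPM in Cre negative libraries.

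Of the transcription factors, Sox17 (chromosome 1, 4490931 to 4497354) measured 176, 153 and 185 CPM in HSC libraries labelled Cre positive and 206, 235 and 135 CPM in Cre negative HSCs. The Cre positive values lay inside the Cre negative range. The log2 fold change was -0.16 (SE 0.25, edgeR adjusted p = 0.996), with an interval of 0.596-fold to 1.34-fold, the narrowest of the 8 on the log2 scale. Sox17 is also expressed in arterial and other endothelium, whose 9 markers were all detected in every HSC library at the shares given above, and their part in its level was not tested. Arid3a (chromosome 10, 79927043 to 79955018, plus strand) measured 23.7, 23.5 and 54.5 CPM in libraries labelled Cre positive and 16.2, 16.7 and 46.9 CPM in Cre negative HSCs. In either group replicate 3 stood at more than double the others, and the groups overlapped. The log2 fold change of 0.35 (SE 0.60, edgeR adjusted p = 0.996) was -0.17 without replicate 3 labelled Cre positive.

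Several of these genes are also active in fetal hepatoblasts, whose 9 markers took 0.166% to 0.269% of reads in libraries labelled Cre positive and 0.143% to 0.328% in Cre negative HSCs, all 9 being detected in each library. The group ranges overlap, and the part of these cells in the levels above was not tested.

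The libraries sorted as CD169+ macrophages, cells that sit at the centre of erythroblastic islands, held reads of the same genes. The CD169 gene Siglec1 reached 16.2 to 102 CPM in Cre positive and 18.2 to 117 CPM in Cre negative libraries. The 10 macrophage markers took 0.213% to 0.339% of reads in Cre positive and 0.171% to 0.421% in Cre negative libraries, less than the endothelial shares given above. In CPM per kb the mean over the 6 macrophage libraries was 21.2 for Hmga1, 19.9 for Arid3a, 16.4 for Igf2bp1, 13.7 for Sox17, 12.6 for Hmga2, 12.4 for Igf2bp3, 9.01 for Igf2bp2 and 0.820 for Lin28b. All neighbours down to Igf2bp2 (4.67 to 13.3 CPM per kb) overlapped in range. Lin28b, at 0 to 2.43 CPM per kb, lay below every other member in every library. Cdh5, which encodes the endothelial cadherin, lay between 1437 and 1873 CPM in Cre positive and between 1004 and 1664 CPM in Cre negative macrophage libraries, and the part of endothelial RNA in these levels, that of Sox17 included, was not tested.

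By edgeR 0 of the 8 genes passed in macrophages, as did 0% of 17806 genes tested, and each of the 8 had an adjusted p of 1. DESeq2 likewise called 0 of the 8. At an unadjusted p under 0.05 stood 0 of the 8, against 5.42% of all genes. The groups overlapped for all 8, where 2.27% of all genes lay higher and 11.8% lower in Cre positive libraries without overlap. All 8 had lower means in Cre positive libraries with TMM scaling, by a median log2 fold change of -0.40. Lower means in the same libraries were found for 8 of 8 stellate markers (median -2.76, 4 without overlap). They took 0.00613% to 0.0107% of reads in Cre positive and 0.0159% to 0.163% in Cre negative libraries. The 0.163% is replicate 1, beside 0.0159% and 0.0244% in the other Cre negative libraries. Also lower were 6 of 8 tested erythroid markers (median -2.55, 3 without overlap) and 9 of 10 macrophage markers (median -1.07). So were 7 of 9 hepatoblast markers (median -1.45, 2 without overlap), with the highest share in Cre negative replicate 1 (0.397%, beside 0.0438% and 0.0437%). Endothelial markers mostly went the other way, 7 of 9 being higher (median 0.26), as did 6 of 10 HSC markers (median 0.35). The part of these cells in the levels of the 8 genes was not tested. The number of the 8 genes with lower means was 6 on library totals and with DESeq2, and 7 without Cre negative replicate 1. On library totals and with DESeq2 Igf2bp1 (0.03 and 0.02) and Igf2bp3 (0.05 and 0.04) had the opposite sign. The median over all genes tested was itself -0.16 with TMM scaling and 0.05 on library totals.

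Lin28b measured 0, 4.09 and 5.22 CPM in Cre positive macrophage libraries, from 0, 22 and 30 reads, and 0.174, 13.1 and 22.0 CPM in Cre negative ones, from 3, 280 and 478 reads. Replicate 1 was at or near 0 in both groups, and the other libraries were higher in the Cre negative group. In the Cre positive library at 0, the shallowest of the 12, levels under 1.08 CPM were not detectable. The log2 fold change was -1.91 (SE 2.19, edgeR unadjusted p = 0.395), with an interval from 0.0109-fold to 6.49-fold, and it ran from -2.56 without Cre positive replicate 3 to -1.10 without Cre negative replicate 3, with -2.49 without Cre negative replicate 1. Lin28a had 6, 68 and 1 reads in Cre positive and 0, 2 and 30 reads in Cre negative libraries, again with overlap.

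Igf2bp1 measured 154, 176 and 118 CPM in Cre positive macrophage libraries and 140, 161 and 206 CPM in Cre negative ones. The groups overlapped throughout most of their range (log2 fold change -0.18, SE 0.38, interval 0.505-fold to 1.55-fold). Igf2bp2 measured 39.2, 34.6 and 73.8 CPM in Cre positive and 98.8, 80.3 and 73.4 CPM in Cre negative libraries. They overlapped narrowly, at Cre positive replicate 3, and its unadjusted p of 0.174 in edgeR was the smallest of the 8 in this sort (log2 fold change -0.77, SE 0.54, interval 0.264-fold to 1.30-fold). Without that library the log2 fold change was -1.25 (edgeR unadjusted p = 0.0419, adjusted p = 0.622), and without Cre negative replicate 1 it was -0.64. Igf2bp3 measured 64.8, 73.8 and 146 CPM in Cre positive and 79.1, 89.7 and 152 CPM in Cre negative libraries, with replicate 3 the highest in both groups (log2 fold change -0.17, SE 0.48).

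Hmga2 measured 52.5, 76.0 and 93.8 CPM in Cre positive macrophage libraries and 136, 80.8 and 72.6 CPM in Cre negative ones. The highest was Cre negative replicate 1, the library rich in Alb, and the log2 fold change of -0.38 (SE 0.49) was -0.05 without it. Hmga1 measured 52.9, 49.5 and 14.8 CPM in Cre positive and 68.3, 51.6 and 33.3 CPM in Cre negative libraries. These ranges overlapped as well, the lowest value being Cre positive replicate 3 (log2 fold change -0.39, SE 0.71). It was -0.12 without Cre negative replicate 1, and with Hmga1b added the pair gave -0.06.

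Sox17 measured 80.6, 58.9 and 29.2 CPM in Cre positive macrophage libraries and 134, 37.3 and 53.5 CPM in Cre negative ones. Its mean in the Cre negative group rests on replicate 1, and the log2 fold change of -0.42 (SE 0.62) turned to 0.32 without that library. Arid3a measured 43.5, 68.6 and 173 CPM in Cre positive and 97.7, 96.3 and 185 CPM in Cre negative libraries. As in HSCs, replicate 3 was the highest in both groups, and the groups overlapped (log2 fold change -0.41, SE 0.53, interval 0.350-fold to 1.63-fold). That value was -0.04 without Cre negative replicate 3 and -1.23 without Cre positive replicate 3 (edgeR unadjusted p = 0.0199, adjusted p = 0.622).

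**Figure D4:**
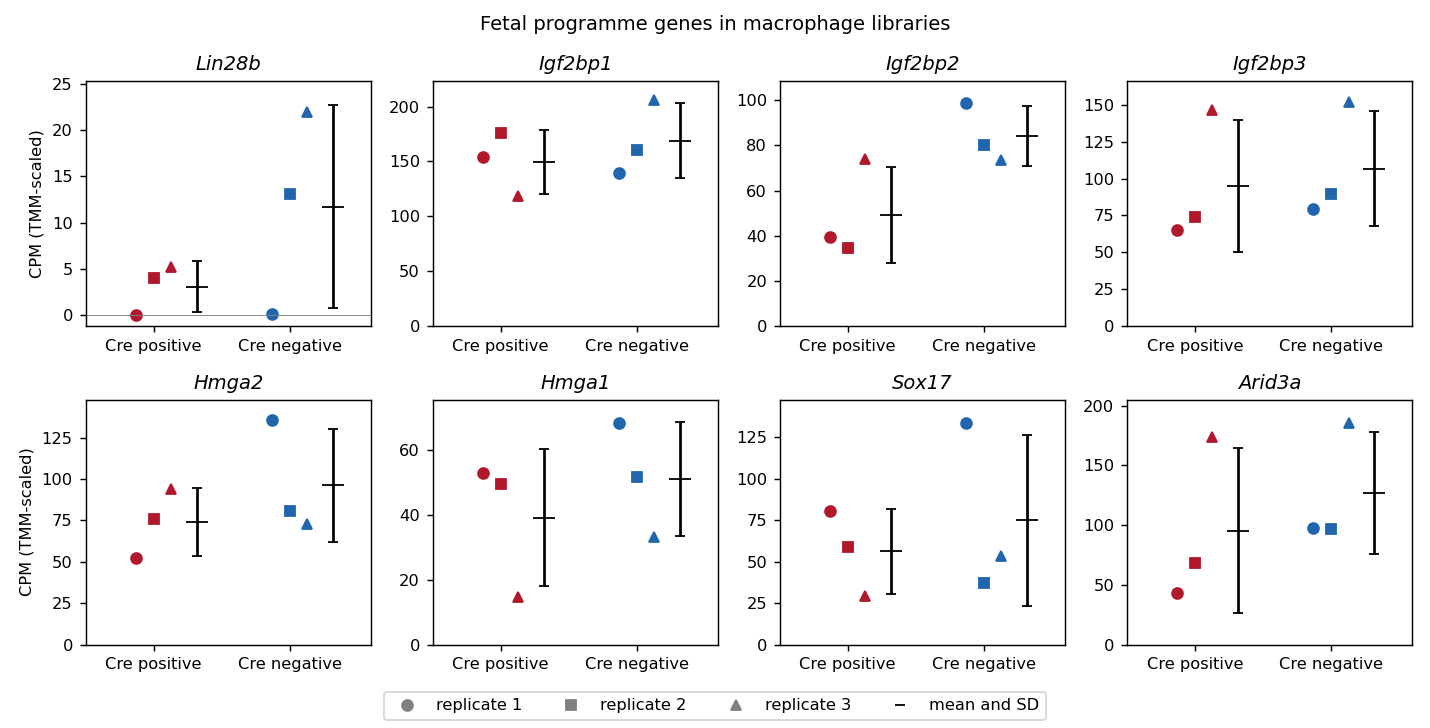
CPM of the 8 genes in the 6 macrophage libraries, Cre positive (red) left of Cre negative (blue), one symbol per replicate number, with mean and SD (n = 3) as black bars. The groups overlap for every gene, and Lin28b is at 0 CPM in Cre positive and 0.174 CPM in Cre negative replicate 1.

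Whether the genotype effect differed between the sorts was tested as an interaction over all 12 libraries, the HSC effect minus the macrophage effect. Again 0 of the 8 genes passed in edgeR, beside 0.0696% of 20128 genes tested, and 0 had an unadjusted p under 0.05, beside 8.62% of all genes (adjusted p = 0.782 to 1 for the 8). DESeq2 called 0 of the 8 as well. The effect was higher in HSCs for 7 of the 8, Igf2bp3 (-0.02) being the exception, but Igf2bp1 (0.04) turned negative with upper-quartile scaling, library totals and DESeq2 (-0.13, -0.05 and -0.05). The median was 0.62, beside 0.21 over all genes. The smallest unadjusted p-values in edgeR were 0.161 for Hmga1 (1.11, SE 0.76, adjusted p = 0.782) and 0.165 for Hmga2 (0.95, SE 0.66, adjusted p = 0.79). Without Cre negative macrophage replicate 1 these values were 0.76 for Hmga1 and 0.54 for Hmga2, and that of Sox17 was -0.51 in place of 0.30. Lin28b had the highest value, 2.78, with an SE of 2.19 (adjusted p = 0.871). For Hmga1 and Hmga1b together the difference was 0.30.

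**Figure D5:**
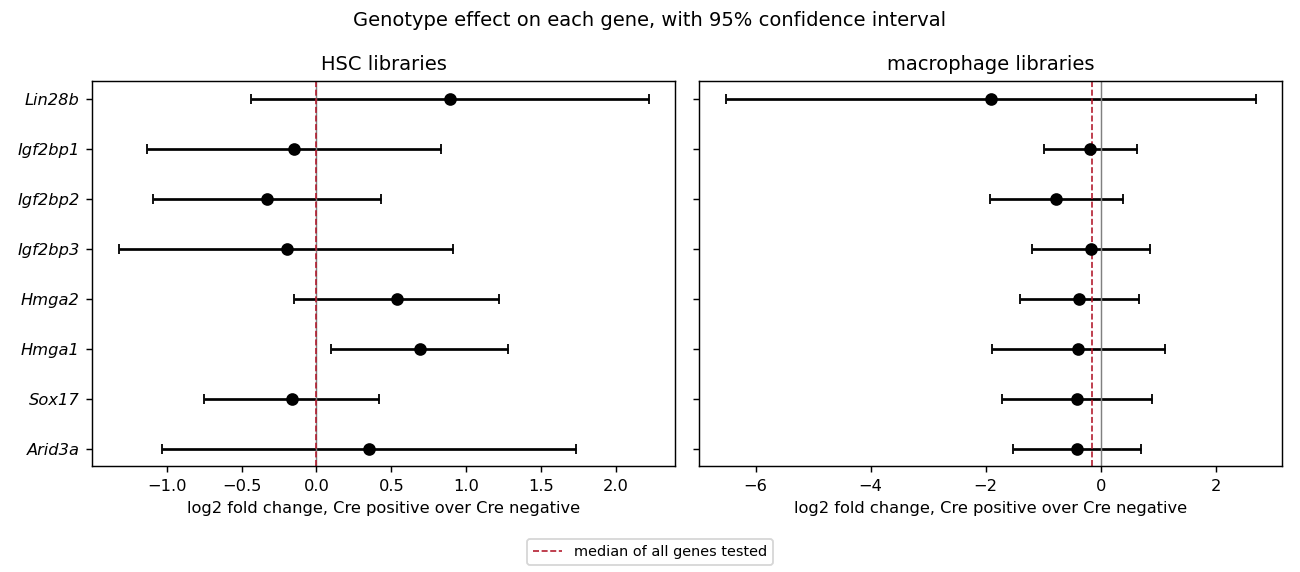
Log2 fold change, Cre positive over Cre negative, of each gene with its 95% confidence interval from edgeR in HSC (left) and macrophage (right) libraries, with the dashed line at the median of all genes tested. The interval lies above 0 for Hmga1 in HSCs and includes 0 for each other gene and in macrophages.

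Levels between the sorts can be set side by side on a scale fitted over all 12 libraries, without a test, since the tables were made separately. On that scale Igf2bp1 lay between 35.8 and 90.6 CPM in HSCs and between 136 and 236 CPM in macrophages, with no overlap over 6 libraries each. The share of all genes that lie apart in this way was not computed, and every other member overlapped between the sorts. For Sox17 the HSC libraries reached 136 to 238 CPM and the macrophage libraries 33.5 to 166 CPM. Arid3a lay between 16.5 and 55.7 CPM in HSCs and between 50.5 and 212 CPM in macrophages. Thus Igf2bp1 and Arid3a had the higher means in macrophages and Sox17 in HSCs, the ranges of Sox17 and Arid3a overlapping at their ends.

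The genes around this programme were followed in lists of let-7 biogenesis, other let-7 targets and transcripts bound by Igf2bp proteins. In HSCs 0 members of any list passed in edgeR. Of 18 tested genes that make, load or degrade let-7, 10 had higher and 8 lower means in libraries labelled Cre positive (median log2 fold change 0.09), and 3 lay higher without overlap, 0 lower, where 6.37% of all genes tested lay higher and 9.33% lower. Ddx17, a helicase of the Microprocessor complex, measured 87.8, 92.2 and 142 CPM in libraries labelled Cre positive and 48.2, 48.0 and 68.5 CPM in Cre negative HSCs (log2 fold change 0.97, SE 0.31, edgeR unadjusted p = 0.0144, adjusted p = 0.689). Ago3, an Argonaute that carries microRNAs, measured 38.7, 49.8 and 71.6 CPM in libraries labelled Cre positive and 34.4, 37.0 and 23.0 CPM in Cre negative HSCs. Neither gene's groups overlapped, while those of Trim25, a cofactor of Lin28a-driven let-7 decay, and Ago2 did (log2 fold changes 0.84 and 0.67).

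Of 22 other let-7 targets, 14 of which hold a seed match in their longest 3' UTR, 12 had higher and 10 lower means in HSC libraries labelled Cre positive (median 0.11). The insulin receptor gene Insr, with 1 match, measured 50, 62.3 and 87.1 CPM in libraries labelled Cre positive and 18.9, 22.1 and 19.9 CPM in Cre negative HSCs. It had the smallest unadjusted p of the list (log2 fold change 1.71, SE 0.36, edgeR unadjusted p = 0.00138, adjusted p = 0.689), with the groups well apart. Igf1r, the receptor of insulin-like growth factors, measured 53.4, 31.7 and 124 CPM in libraries labelled Cre positive and 29.1, 29.7 and 38.4 CPM in Cre negative HSCs, with overlap (log2 fold change 1.10, SE 0.51). The cyclin gene Ccnd2 measured 413, 533 and 667 CPM in libraries labelled Cre positive and 274, 246 and 473 CPM in Cre negative HSCs, again with overlap. On the other side Myc, the growth regulator, measured 194, 195 and 207 CPM in libraries labelled Cre positive and 347, 267 and 281 CPM in Cre negative HSCs (log2 fold change -0.59, SE 0.19, edgeR unadjusted p = 0.0146, adjusted p = 0.689). All its libraries labelled Cre positive lay below all Cre negative ones.

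Myc is at the same time an Igf2bp1-bound transcript. Of 12 tested transcripts of that list 4 had higher and 8 lower means in libraries labelled Cre positive (median -0.17), and 3 lay lower without overlap, 0 higher, where 9.33% of all genes tested lay lower and 6.37% higher. Beside Myc these were Ctnnb1, which encodes beta-catenin, at 303, 266 and 201 CPM in libraries labelled Cre positive and 475, 337 and 384 CPM in Cre negative HSCs, and the cyclin gene Ccnd3 (log2 fold changes -0.64 and -0.40, edgeR adjusted p = 0.734 and 0.807). The imprinted RNA H19, which the Igf2bp proteins also bind, measured 509, 407 and 961 CPM in libraries labelled Cre positive and 512, 389 and 365 CPM in Cre negative HSCs, with overlap.

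In macrophages, too, 0 members of these lists passed in edgeR. Of 19 biogenesis genes 8 had higher and 11 lower means in Cre positive libraries (median log2 fold change -0.14). Ago4, another Argonaute, measured 55.8, 32.5 and 84.9 CPM in Cre positive and 10.3, 12.1 and 11.9 CPM in Cre negative libraries, without overlap (log2 fold change 2.34, SE 0.83, edgeR unadjusted p = 0.0118, adjusted p = 0.773). Of the 22 other let-7 targets 8 had higher and 14 lower means (median -0.64, beside -0.16 over all genes), 3 of them lower without overlap, beside 11.8% of all genes tested. Among these were Mycn and Insr. Insr measured 55.4, 38.5 and 28.2 CPM in Cre positive and 57.1, 96.4 and 106 CPM in Cre negative libraries (log2 fold change -1.09). Insr thus lay higher in HSC libraries labelled Cre positive and lower in Cre positive macrophages, and the test of that difference did not pass in edgeR (log2 difference 2.80, HSC minus macrophage, SE 0.80, unadjusted p = 0.00206, adjusted p = 0.374). Of 13 tested transcripts bound by Igf2bp proteins 5 had higher and 8 lower means (median -0.21), all with overlap.

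The interaction called 1 gene of these lists, where 0.0696% of the 20128 genes tested were called. Mycn, the Myc relative of early development and a let-7 target in other cells, had 0 seed matches of this form in its longest 3' UTR. It had 0 reads in all Cre positive macrophage libraries and 54, 133 and 198 reads (3.13, 6.21 and 9.13 CPM) in Cre negative ones. Against 3 counts per library it was at least 8.55-fold lower in Cre positive macrophages, a bound for counting error only. The test of Mycn within macrophages did not pass (log2 fold change -9.25, SE 3.55, edgeR unadjusted p = 0.0198, adjusted p = 0.773). Epor, the erythropoietin receptor gene among the erythroid markers, was at 0 in the same 3 libraries and at 3.24, 6.35 and 13.5 CPM in Cre negative ones, and the stellate and erythroid lists were lower there as given above. Their part in the Mycn counts was not tested. In HSCs Mycn was abundant, at 467, 355 and 214 CPM in libraries labelled Cre positive and 190, 333 and 569 CPM in Cre negative ones, with overlap. The Mycn interaction had an adjusted p of 0.00427 in edgeR. Among the cell type markers, 1 of 10 HSC markers and 1 of 9 erythroid markers were also called in the interaction.

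For each gene, the closest profiles over the 6 HSC libraries were sought among 10839 named genes of at least 5 CPM, as the mean absolute difference of log2(CPM + 1) after centring each gene. Hmga2 was most like B4galt6 (0.05) and H1fx (0.07), against a mean deviation of 0.29 of Hmga2 itself. Lin28b was most like Tspan32 and Meg3 (0.14 each, own deviation 0.45), Hmga1 most like Fcgr3 (0.08) and Rfc2 (0.09), and Arid3a most like Notch2 (0.10). Igf2bp1 was most like Ostm1 (0.12), Igf2bp2 like Ripor2 (0.08), Igf2bp3 like Ctns (0.09) and Sox17 like Aida (0.08). None of the 8 had another of the 8 considered, since members were left out of this search. The smallest of so many distances over 6 libraries can be low without any link between genes. The distances of unrelated genes were not computed in either sort. In macrophages, over 11310 genes, Lin28b was most like Milr1 (0.14, own deviation 1.43), and the closest genes of the other 7 were Gnaq for Igf2bp1, Brms1l for Igf2bp2, Ik for Igf2bp3, Ino80d for Hmga2, Mark4 for Hmga1, Prpf39 for Sox17 and Eif3k for Arid3a, at 0.07 to 0.14.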

How the data were processed

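RNA was measured in 12 libraries made from 2000 HSCs or 1000 to 3000 macrophages with SMART-Seq v4, an unstranded method, per the labels' protocols. The authors deposited raw read counts per gene, 1 table per sort. The submitters' processing notes name STAR 2.7.6a, featureCounts (Subread 2.0.1) and GRCm38 for HSCs. For macrophages they name only mm10, the tools being not given in the sources used here. All per-sample columns matched a sample (0 did not), and 0 rows named no gene.

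Genes were named from GENCODE M21. Each table was filtered with filterByExpr, TMM-scaled and fitted in edgeR 4.0.16 (limma 3.58.1, R 4.3.3) by the robust quasi-likelihood method. Fold changes are Cre positive over Cre negative, and p-values were adjusted by Benjamini-Hochberg over all genes tested. The interaction used the 32210 identifiers in both tables. The code was tested on simulated data. Replicate libraries differed by more than sampling noise (chi-square per degree of freedom 51.2 to 831), so none was merged. Alternatives were DESeq2 1.42.0, upper-quartile scaling, library totals, no filter, a replicate block, equal depth in macrophages, the sum of Hmga1 and Hmga1b, and leaving out each library.

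The 8 genes and the lists were chosen with earlier results of these data known. Named beside them are, in each list and sort, up to 4 genes with the smallest unadjusted p and any past the threshold, and for each of the 8 the most similar profiles. 1 gene that this rule takes is not reported here.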

Additional observations from a re-analysis of the deposited data

Results flagged for a closer look

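Mycn was singled out because its genotype effect differed between the sorts by a direct test. The fitted log2 difference of effects, HSC minus macrophage, was 10.98 (SE 1.58, edgeR adjusted p = 0.00427). That size depends on the prior count and is no bound, because all 3 Cre positive macrophage libraries had 0 Mycn reads, against 54, 133 and 198 reads in the Cre negative ones. Within macrophages alone the test of Mycn did not pass (SE 3.55, edgeR unadjusted p = 0.0198, adjusted p = 0.773). The interaction fit shares its estimate of the spread of each gene over both sorts. In HSCs the libraries labelled Cre positive (467, 355 and 214 CPM) and the Cre negative ones (190, 333 and 569 CPM) overlapped. The Cre positive macrophage libraries were also the shallowest, where 3 counts stand for 0.522 to 1.08 CPM, and Epor, an erythroid marker, was at 0 in the same 3 libraries. The part of depth and of other cells in this difference was not tested.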

How the results depend on the processing

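Of the 8 genes, 0 were called in HSCs, in macrophages and in the interaction under every alternative run. With 3 libraries a group and SEs of 0.25 to 2.19, none of the differences of these genes passed the adjustment over all genes. Over all genes edgeR called 0 in HSCs, and DESeq2 133 (27 higher). In macrophages edgeR called 0, DESeq2 61 (10 higher), edgeR without a filter 21 and with a replicate block 13, and without 1 library 1 to 34 (0 to 3 higher). The interaction called 14 (all higher), 743 with DESeq2 (443 higher), 9 with upper-quartile scaling, 8 on library totals, 107 without a filter (90 higher), 96 with a replicate block (90 higher) and 6 to 210 without 1 library (6 to 205 higher). Within each sort, deviations of Cre positive and Cre negative libraries had r of -0.03 to 0.04 whatever their replicate numbers, so no pairing by number was seen. With the replicate block Hmga1 in HSCs had a log2 fold change of 0.69 with an edgeR unadjusted p of 0.055, in place of 0.0272, and Lin28b one of 0.95.

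Signs turned for Igf2bp1 in macrophages with DESeq2 (0.019) and library totals (0.031), for Igf2bp3 in macrophages with DESeq2 (0.043), library totals (0.054) and equal depth (0.076), and for Igf2bp1 in the interaction with DESeq2 (-0.051), upper-quartile scaling (-0.133) and library totals (-0.052). Without 1 library, log2 fold changes in HSCs ran from -0.17 to 1.04 for Arid3a, -0.45 to 0.12 for Igf2bp1, -0.567 to 0.045 for Igf2bp2, -0.72 to 0.18 for Igf2bp3 and -0.369 to 0.002 for Sox17. In macrophages they ran from -0.68 to 0.16 for Igf2bp3 and -0.81 to 0.32 for Sox17. In the interaction they ran from -0.27 to 0.31 for Igf2bp1, -0.54 to 0.42 for Igf2bp3 and -0.51 to 0.65 for Sox17. The cause was not tested. The Mycn interaction, a check added after its call was seen, passed under every alternative run on it (7.0 with DESeq2 to 11.36). Equal depth was run in macrophages only, and not for the interaction.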

Other observations

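Arid3a was highest in the library numbered 3 in 4 of 4 groups, and Hmga1 in the library numbered 1 in 4 of 4 groups. For Arid3a these values were 54.5 CPM in HSCs labelled Cre positive, 46.9 CPM in Cre negative HSCs, 173 CPM in Cre positive and 185 CPM in Cre negative macrophages. Igf2bp3 and Hmga2 were each highest in the library numbered 3 in 3 of 4 groups. Over all genes the numbers showed no pairing of libraries within a sort, and pairing between the sorts was not tested. Arid3a and Hmga1 were picked out after their values were seen.

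Hmga1b, the copy of Hmga1, measured 0.720, 40 and 3.13 CPM in Cre positive macrophage libraries and 0.985, 9.90 and 3.46 CPM in Cre negative ones. In both groups replicate 2 was the highest.

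Of the relatives of the 8 genes, 1 of 4 tested in HSCs had a higher mean in libraries labelled Cre positive and 3 a lower one, with 0 called in edgeR and 0 at an unadjusted p under 0.05. Sox18, which acts beside Sox17 in endothelium, measured 320 ± 53.1 CPM in libraries labelled Cre positive and 342 ± 176 CPM in Cre negative HSCs (SD, n = 3 each). Arid3b, the closest relative of Arid3a and itself a let-7 target with 1 seed match, measured 25.8 ± 13.2 CPM in libraries labelled Cre positive and 18.3 ± 4.31 CPM in Cre negative ones (SD, n = 3 each; log2 fold change 0.50, SE 0.58). In macrophages 5 of 5 tested relatives had higher means in Cre positive libraries, again with 0 called and 0 at an unadjusted p under 0.05. Sox18 there measured 77.8 ± 35.4 CPM in Cre positive and 54.3 ± 24.5 CPM in Cre negative libraries (SD, n = 3 each).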
